A study of Homo sapiens with 2 samples.

Results

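The locus of NEAT1 and MALAT1, 2 genes for long noncoding RNAs that lie next to each other on chromosome 11 and are read from the plus strand, was examined in the H3K27ac HiChIP of KYSE180. KYSE180 is an established cell line of esophageal squamous cell carcinoma (ESCC), and the cells had received a non-targeting siRNA. This was the only condition, in 2 libraries labelled as replicates 1 and 2, and the authors deposited 1 list of loops for both. The methods call the loops sought p63-associated and active, so the list need not hold all contacts of chromatin with H3K27ac, and a bin without a listed loop may still have contacts. HiChIP ligates DNA ends that lie close together in the nucleus and then enriches chromatin that carries H3K27ac, a histone mark of active promoters and enhancers. Each loop joined a pair of 2 kb bins (anchors) and carried its contacts, that is the read pairs found between them, together with a coverage value for its first bin. The members were all loops with at least 1 bin starting between 65.15 and 65.3 Mb of chromosome 11, a window of 150 kb on hg19, and they numbered 88 of the 31950 loops in the list. The starts given with the definition of the locus put the 5′ end of NEAT1 in the bin from 65190001 to 65192000 and that of MALAT1 in the bin from 65264001 to 65266000.

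NEAT1 is the RNA scaffold of paraspeckles, nuclear bodies that retain RNAs and RNA-binding proteins, and it is made in a short and a long form from the same 5′ end. MALAT1 is among the most abundant nuclear RNAs of many cell types and accumulates in nuclear speckles, which store splicing factors. Both are transcribed strongly in epithelial and tumor cells, and their promoters are known sites of active chromatin. In the RefSeq order of genes, FRMD8 and SLC25A45 precede NEAT1, the microRNA gene MIR612 lies within NEAT1, and FAUP4, ENEMAL and LINC02736 lie between NEAT1 and MALAT1. TALAM1, an antisense RNA, and MASCRNA, a small RNA cut from the MALAT1 3′ end, overlap MALAT1, and SNRPGP19, a pseudogene, follows it. These names come from GRCh38 and serve only for order. No loop was assigned to a neighboring gene, because no annotation on hg19 was used here. The starts of NEAT1 and MALAT1 were 74.99 kb apart on hg19 and 74.94 kb apart in RefSeq.

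The MALAT1 promoter is shown because its 5′ end lies in an anchor and because RefSeq (GRCh38.p14) gives it 2 start sites, 1.31 kb apart. Each window runs from 250 bases before to 50 bases after a start, on the plus strand of chromosome 11. Capitals mark the 50 bases after the start and, where present, the letters TATAAA before it.
MALAT1 start 1, chr11:65497488-65497787: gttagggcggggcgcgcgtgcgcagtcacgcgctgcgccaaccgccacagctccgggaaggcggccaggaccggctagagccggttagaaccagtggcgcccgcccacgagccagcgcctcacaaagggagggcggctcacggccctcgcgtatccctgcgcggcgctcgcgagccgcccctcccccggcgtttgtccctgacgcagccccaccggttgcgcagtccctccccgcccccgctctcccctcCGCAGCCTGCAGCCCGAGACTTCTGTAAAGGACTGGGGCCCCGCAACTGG
MALAT1 start 2, chr11:65498795-65499094: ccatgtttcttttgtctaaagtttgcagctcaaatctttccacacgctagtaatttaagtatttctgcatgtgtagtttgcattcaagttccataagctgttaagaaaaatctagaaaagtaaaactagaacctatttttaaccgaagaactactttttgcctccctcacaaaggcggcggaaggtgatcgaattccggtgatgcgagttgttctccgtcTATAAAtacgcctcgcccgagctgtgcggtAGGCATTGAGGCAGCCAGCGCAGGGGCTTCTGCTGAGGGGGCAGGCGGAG

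The 2 windows differed in base composition. The window of start 1 was 73.7% G or C with 37 CpG dinucleotides, and 11.3% of 35116 RefSeq promoter windows had as many. The window of start 2 was 46.0% G or C with 14 CpG dinucleotides, which equals the median of all promoter windows. The letters GGGCGG occurred 5 times in the window of start 1 over both strands and 0 times in that of start 2, and 45.0% of promoter windows held them. TATAAA occurred once, 30 bases before start 2, and 11.5% of promoter windows held it on either strand. TGANTCA, the letters of an AP-1 site, occurred in neither window and in 7.71% of all. These matches describe letters only, and the starts on GRCh38 were not placed on the bins of the list. NEAT1 had 0 entries among these promoter windows.

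The 88 loops of the window carried 88 contacts, so that each loop rested on a single contact. The exact 95% Poisson interval was 70.6 to 108 for the 88 loops and 0.0253 to 5.57 for a count of 1, and these intervals cover counting error only. Loops with 2 or more contacts made up 3.36% of the whole list and 0 of 88 here, which allows a share of up to 3.41%. At the rates of the list within 4 classes of span, 2.34 such loops would have been counted. A lower share of repeated contacts at this locus was therefore not detectable at this depth.

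Of the loops, 23 had both bins in the window, 29 reached a bin before it and 36 a bin after it. The window held 27 anchors among its 75 bins (36%). Chromosome 11 from 65 to 70 Mb, which includes the window, held 639 anchors. When the genome was tiled into windows of this width, 0.325% of 7384 tiles with a loop had as many loops, with a median of 3. The adjacent tiles were about as rich, with 81 loops before the window and 88 after it, and 12 of the 24 tiles with as many loops lay on chromosome 11. The window lies in a stretch of that chromosome, 65 to 70 Mb, whose coverage was high by its median. Median first-bin coverage was 21.5 in the window (20 bins, interquartile range 14 to 39), 26 in the rest of that segment (508 bins, 18 to 38) and 12 in the rest of the list (21108 bins, 8 to 20). In a narrower window, from 10 kb before NEAT1 to 20 kb after MALAT1, the median was 33, so the order of the window and the segment depended on the edges of the window. Both lay above the rest of the list, and no data on copy number were used here.

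**Figure D1:**
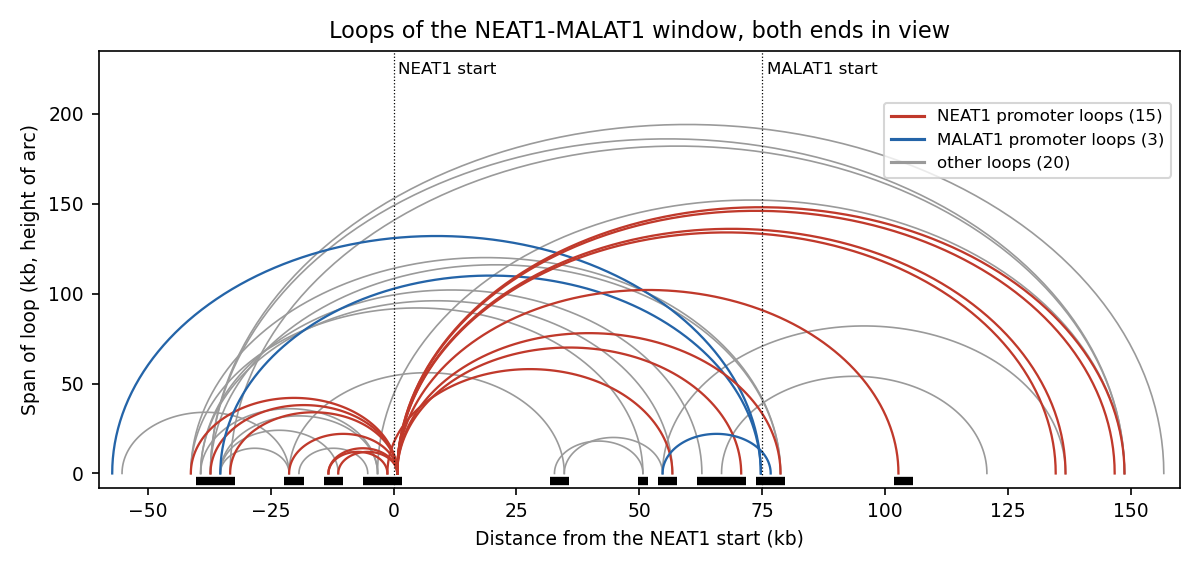
Arcs join the bins of each loop with both ends from 60 kb before to 160 kb after the NEAT1 start (x axis, kb), and the height of an arc is the span of the loop in kb. Black bars are the anchors of the window. Of the 38 loops in view, 15 start from the NEAT1 promoter (red), 3 from the MALAT1 promoter (blue) and 20 from other bins (gray).

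The NEAT1 start lay in the single bin with the most loops in the window. This bin, from 65190001 to 65192000, had 17 loops with 17 contacts (Poisson interval 9.90 to 27.2), and its coverage of 69 was the highest of the 20 first bins. The next anchor in order, from 65150001 to 65152000, had 9 loops and a coverage of 46. Across the list, 0.063% of 34902 anchors (22 anchors) had as many loops as the NEAT1 start bin, and 13 of these 22 lay between 65 and 70 Mb of chromosome 11. Of the 338 first bins with a coverage of at least 69, 5.92% had as many loops, with a median of 7.

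With the bins within 1 kb of the start, the NEAT1 promoter had 21 loops to 20 partner bins (Poisson interval 13.0 to 32.1). Such counts were found in 0.116% of the 57529 windows of 2 adjacent bins with a loop. The loops led to both sides, 11 to lower and 10 to higher positions. Before the gene, 7 loops spanned 12 to 42 kb, namely 12 (2 loops), 14, 22, 34, 38 and 42 kb, and the other 4 spanned 104, 160, 560 and 1086 kb. The bin from 65176001 was joined to both promoter bins, by loops of 12 and 14 kb. After the start no partner was nearer than 58 kb. The partners there lay 58, 70, 78 and 102 kb away, then 134, 136, 146 and 148 kb away, and finally 468 and 834 kb away. The near partners thus lay on the side of FRMD8 and SLC25A45, and those on the side of MALAT1 began 58 kb from NEAT1.

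Anchors were unevenly placed along the NEAT1 gene. Of the 11 bins that cover the start and the following 20 kb, 1 had a loop, namely the start bin. The next anchor began at 65222001, after 30 kb without any, which was the longest such gap in the window. RefSeq gives NEAT1 a length of 22743 bases, so the part of the gene covered by these bins takes in most of the long form. Before the start, the 3 bins from 65184001 to 65190000 were anchors with 1, 3 and 4 loops. The latter 2 of these bins had coverages of 42 and 33, against 69 in the start bin. In these 2 bins coverage thus stayed above the window median of 21.5, while loops concentrated in the start bin. Coverage is listed only for first bins, so the bin from 65184001 and the bins without loops after the start have none to compare.

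MALAT1 had fewer loops than NEAT1 at its promoter. The bin of its start, from 65264001 to 65266000, had 4 loops (Poisson interval 1.09 to 10.2) and a coverage of 39. With the bins within 1 kb, the MALAT1 promoter had 6 loops (2.20 to 13.1), and 6.06% of windows of 2 adjacent bins had as many. Its partners lay 22, 110, 132, 140 and 512 kb away at lower positions and 284 kb away at a higher one. The promoter of NEAT1 thus had more loops than that of MALAT1, and the intervals of their counts, 13.0 to 32.1 and 2.20 to 13.1, met at their ends. The difference itself was not tested, since loops that share a bin are not independent. Unlike NEAT1, MALAT1 had anchors after its start bin, from 65266001 to 65268000 with 2 loops and from 65268001 to 65270000 with 4 loops. RefSeq gives MALAT1 a second start 1.31 kb after the first, which was not placed on the bins. The bin from 65266001 may therefore hold a promoter and not only the gene body. The bin just before the start bin had no loops, and the bin before that, from 65260001 to 65262000, had 6 loops and a coverage of 49. Within 5 kb of the starts the counts were 16 for MALAT1 (9.15 to 26.0) and 25 for NEAT1 (16.2 to 36.9), so the count at MALAT1 depended on the width of its promoter.

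**Figure D2:**
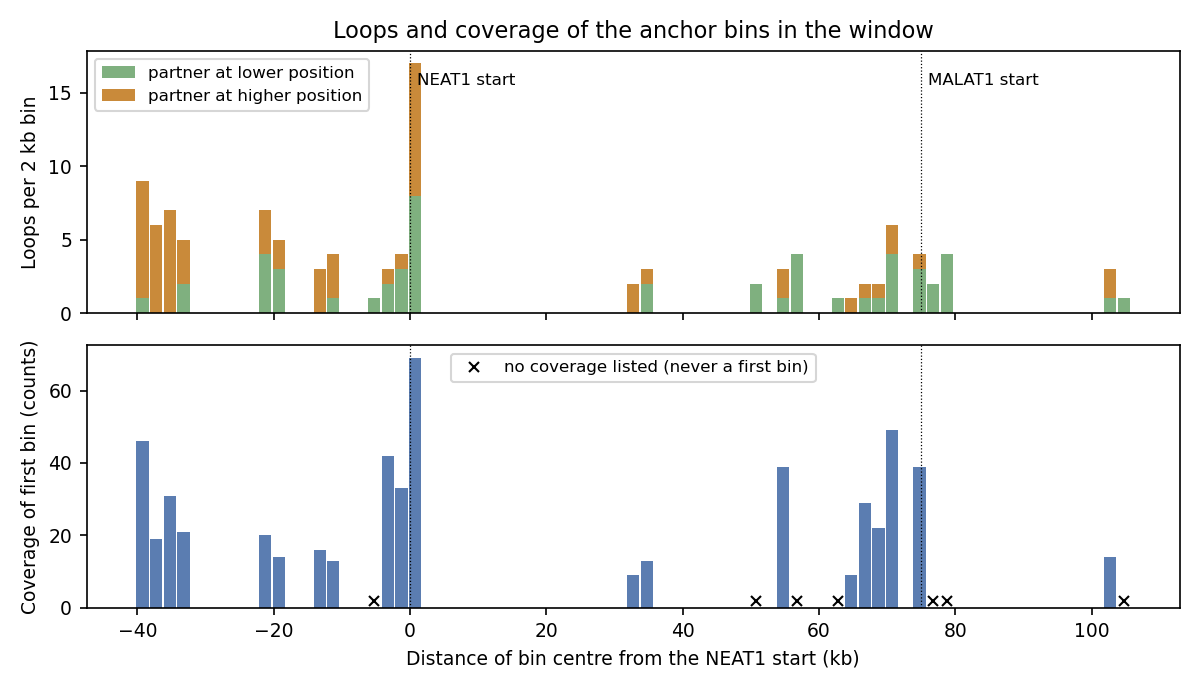
The upper panel gives the loops of each 2 kb anchor, split by whether the partner lies at a lower or a higher position, and the lower panel gives the coverage listed for first bins, both against the distance of the bin from the NEAT1 start in kb. The NEAT1 start bin stands highest in both panels, with 17 loops and a coverage of 69, and crosses mark anchors with no listed coverage.

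**Figure D3:**
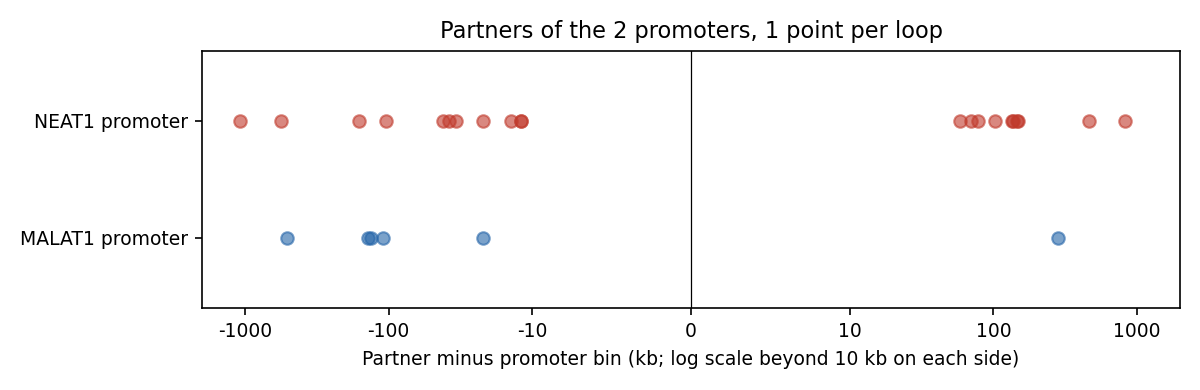
Each point is a loop, placed at the distance of its partner from the promoter bin (x axis, kb, logarithmic beyond 10 kb on each side). NEAT1 has 11 loops to lower and 10 to higher positions, and MALAT1 has 5 and 1.

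The contacts listed for a first bin were set against its coverage. The NEAT1 start bin had 9 contacts with bins at higher positions, which was 13.0% of its coverage (95% Wilson interval 7.02 to 23.0%). The MALAT1 start bin had 1, which was 2.56% (0.454 to 13.2%). These intervals overlap. Loops to lower positions were left out, 8 at the NEAT1 start bin and 3 at the MALAT1 start bin. The shares therefore also depend on the side on which the partners lie. Over the 20 first bins of the window the share was 10.8% (59 of 547, 8.45 to 13.7%), and over the list it was 9.14%. At the bin before MALAT1, from 65260001 to 65262000, it was 4.08% (1.13 to 13.7%), with 4 of its 6 loops left out.

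The loops that joined NEAT1 and MALAT1 to each other numbered 0 to 2, depending on the bins used. Other pairs of genes at a like distance were not counted, so this number has no background. Between the 20 kb after the NEAT1 start and the 20 kb after the MALAT1 start there was 1 loop with 1 contact. It ran over 78 kb from the NEAT1 start bin to the bin from 65268001 to 65270000, which begins 2.77 kb after the MALAT1 start. When the bins within 1 kb of both starts were used there were 0 such loops. Within 5 kb of the starts there were 2, the other of which ran over 70 kb to the bin from 65260001 to 65262000, just before MALAT1. Thus no listed loop joined the promoters themselves, and the 2 loops near them were single contacts to bins beside the MALAT1 start.

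A stretch of touching anchors before NEAT1 was joined to both genes. It ran from 65148001 to 65158000, so its lowest bin lies just outside the window. It had 36 loops, more than any other stretch here, and they led to 26 partner stretches. It had 5 loops with the stretch of NEAT1, from 65184001 to 65192000, and 3 with the stretch of MALAT1, from 65264001 to 65270000. Within 1 kb of the starts, NEAT1 (20 partner bins) and MALAT1 (6) shared 0 partner bins. Of these NEAT1 partners, 3 lay within 4 kb of a MALAT1 partner. Within 5 kb of the starts, the genes shared 3 partner bins, which was 13.0% of the 23 of NEAT1 and 20% of the 15 of MALAT1. Shares for other pairs of promoters in the list were not computed, so these counts have no background. The 3 shared bins, from 65148001, 65152001 and 65154001, all belonged to the stretch before NEAT1. This stretch lies on the side of FRMD8 and SLC25A45, and no gene was assigned to it.

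Of the 45 pairs of the 10 stretches at the window, 17 were joined, 4 of them by more than 1 loop. The 4 pairs were NEAT1 with the stretches 42, 22 and 14 kb before it (5, 2 and 3 loops) and MALAT1 with the stretch 42 kb before NEAT1 (3 loops). NEAT1 was joined to 7 of the other stretches and MALAT1 to 3. Joined pairs were not counted elsewhere in the list, so the counts of joined pairs have no background. Of the 10 stretches, 3 were 8 kb or longer. They were that of NEAT1 (8 kb), the one before NEAT1 (10 kb) and the one just before MALAT1 (10 kb). Of the 22628 stretches in the list, 2.62% were as long. The stretch of NEAT1 had 25 loops and that of MALAT1, 6 kb long, had 10, and 0.354% and 3.64% of all stretches had as many. The stretch before NEAT1 had 36 loops, and 0.124% of all stretches had as many. These shares take no account of length. The median was 10.5 loops in stretches of 8 kb or longer and 2 in all stretches.

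**Figure D4:**
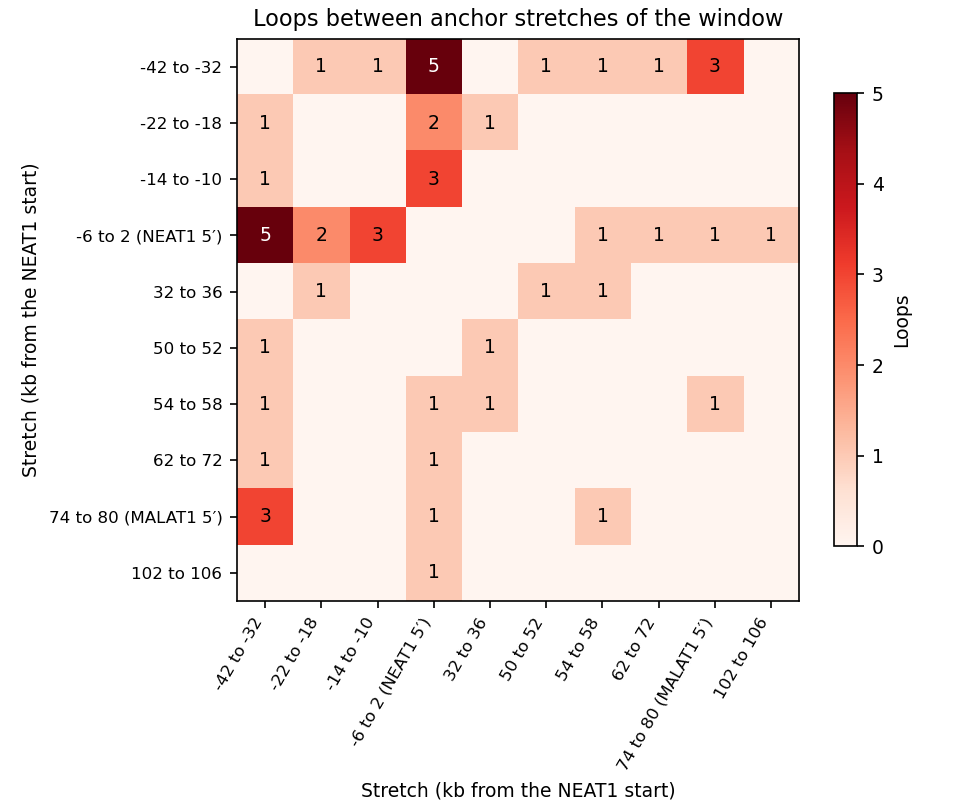
Each cell gives the number of loops between a pair of anchor stretches, named by their position in kb from the NEAT1 start. The row of the NEAT1 stretch has 5, 2 and 3 loops with the stretches before it and 1 with each of 4 stretches after it. The lowest stretch includes 1 bin outside the window.

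Outside the window, 65 loops led to 54 partner bins, and 8 of these were joined to more than 1 bin of the window. The partner joined to most, from 65338001 to 65340000, had 16 loops in the list. Of these, 4 came from the window, from the NEAT1 start bin, the bin from 65186001 just before NEAT1 and the bins from 65152001 and 65156001. With 3 further partners of the NEAT1 start bin, from 65324001, 65326001 and 65336001, it formed a group 134 to 148 kb after NEAT1. None of the 6 MALAT1 promoter loops reached this group, but only 1 of them led to a higher position at all. The bin from 65326001 was also joined to the bin from 65244001, which lies between the genes.

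Of the 27 anchors, 6 had 6 or more loops, against 3.05% of the anchors of the list. They were the NEAT1 start bin, the bins from 65150001, 65152001 and 65154001, the bin from 65168001 between these and NEAT1, and the bin from 65260001 before MALAT1. The median was 3 loops per anchor in the window, 4 from 65 to 70 Mb as a whole and 1 in the list. At the lower edge of the window, the bin inside it (from 65150001) and the one outside it (from 65148001) had 9 loops each, with coverages of 46 and 45. At the upper edge, the last anchor inside (from 65294001) had 1 loop and the next outside (from 65308001) had 2. The lower edge thus cuts through an active stretch, and the upper edge lies in a stretch without anchors.

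The loops of the window spanned 12 to 4410 kb, and the median span was 177 kb (quartiles 81 and 479 kb, 95% interval of the median 132 to 234 kb). The median was 168 kb (46 to 533.5 kb) in the rest of the segment and 120 kb (36 to 397.5 kb) in the rest of the list. Short loops were the class in which the window differed most from the rest of the list. Loops of less than 50 kb made up 18.2% of the window (16 loops, Wilson interval 11.5 to 27.5%), 26.5% of the rest of the segment (24.2 to 28.8%) and 31.1% of the rest of the list (30.6 to 31.6%). The interval of the window thus lay below that of the rest of the list but overlapped that of the segment. No test was made, because loops with a common bin depend on each other. The rule of membership also favored long loops. A loop longer than the window could enter by either bin, whereas the bins of a short loop often fall in the window together. The segment was taken by first bin only, and the rest of the list by no such rule. The comparisons of span therefore cannot tell whether short loops are rarer at this locus. Loops of 1 Mb or more numbered 12, or 13.6% (7.98 to 22.3%), against 11.7% of the list.

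**Figure D5:**
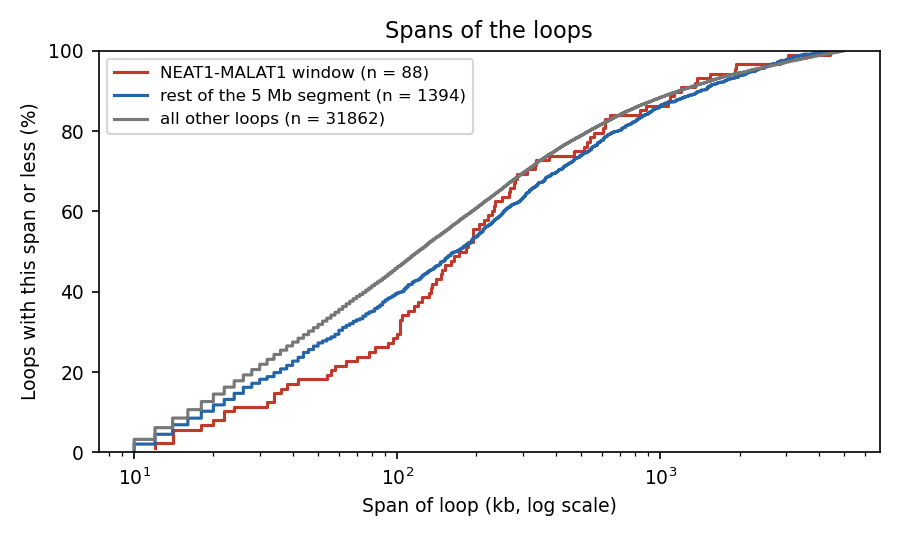
The lines give the percentage of loops with a span up to the value on the x axis (kb, log scale) for the 88 loops of the window, the 1394 other loops that begin from 65 to 70 Mb of chromosome 11, and all 31862 other loops. The line of the window lies lowest below about 100 kb and then meets that of the segment, and the medians are 177, 168 and 120 kb. Loops of the window were taken by either bin, which favors long spans.

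Among the 12 long loops, 1 started at the NEAT1 promoter, 1086 kb from its partner, and 0 at the MALAT1 promoter. The longest ran over 4410 kb from the bin from 65254001, between the genes, to the bin from 69664001. From the window's bins of the stretch before NEAT1, 5 long loops led to higher positions, and 2 of them ended in adjacent bins, from 67082001 and 67084001. Such neighbors were counted for all loops of the window. Of these, 24 (27.3%, Wilson interval 19.1 to 37.4%) ran within 4 kb of another loop at both of their ends, against 19.9% of all loops, a value within the interval of the window.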

How the data were processed

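Per the labels, H3K27ac HiChIP was done in KYSE180 transfected with non-targeting siRNA, in 2 libraries. The submitters' processing notes name HiC-Pro and hg19. Loop calling by the authors used FitHiChIP (Peak-To-All), with the stated aim of finding active loops associated with p63, and excluded loops with an end that lacks H3K27ac. Versions and thresholds are not given in the sources used here. The deposited list pools both libraries and holds 2 columns of raw counts without names. These were taken to be the contacts of each loop and the coverage of the first bin, from the column order of FitHiChIP and because the second was constant for each of 21636 first bins and was exceeded by the contacts in 0 of them. The list held 33708 contacts, and does not give the depth of the libraries.

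Positions are 1-based on hg19. Promoters were the bins within 1 kb of the starts. Touching anchors were merged into stretches. Intervals are 95%, exact Poisson for counts, Wilson for shares and binomial order statistics for medians. With 1 list of 1 condition there is no replicate spread and no test across samples. An upper limit of 3 counts was used for a count of 0. The text was to name NEAT1, MALAT1, the 2 genes next to them on each side and those between, of which 1 is not reported here. Genes at partner bins and genes of paraspeckle proteins were not placed, because the annotation at hand (GENCODE 44 and RefSeq) is on GRCh38. The members and lists were chosen with earlier results of these data known. The alternatives were other promoter widths, a narrower window, and minimum spans and contacts. The counting was tested on simulated data. The software was scipy 1.17.1, pandas 2.3.3, numpy 2.4.6 and matplotlib 3.10.9 under Python 3.11.15.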

Additional observations from a re-analysis of the deposited data

How the results depend on the processing

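Of 22 recomputed values of 8 results, 12 stayed within 1.5 times the count or within the 95% interval of the share or median, and 10 moved. By construction, fewer loops were left with both bins in the window (23 in place of 88) and in a window from 10 kb before NEAT1 to 20 kb after MALAT1 (55 loops with 55 contacts). With 2 or more contacts, 0 loops were left at the locus, at the NEAT1 promoter, at the MALAT1 promoter and between NEAT1 and MALAT1, so no median span could be given. Within 5 kb of the start, MALAT1 had 16 loops in place of 6. Loops between NEAT1 and MALAT1 numbered 0 with promoter bins and 2 within 5 kb of both starts, in place of 1. Median first-bin coverage was 33 in the narrower window in place of 21.5, within the interval of the latter (14 to 39) but above the 26 of the rest of the segment. The NEAT1 promoter count was 17 to 25 under the other widths and the minimum span of 20 kb. No paired analysis was possible because there was 1 condition and 1 list for both libraries, which also left no replicate to omit. Every loop here rests on 1 contact, and this depth limits all counts.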
